A study of Mus musculus with 12 samples.

Results

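The insulin-like growth factor (IGF) system of the kidney cortex was described through 10 genes: the ligands Igf1 and Igf2, the receptor Igf1r and the binding proteins Igfbp1 to Igfbp7. They are 10 of the 37681 genes in the table. The genes were selected with the difference between TRACK and control kidneys already known, so their differences between genotypes are given as levels and fold changes. Whether a member passed a threshold is stated as a description of the fit and supports nothing further.

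TRACK mice carry a transgene for a mutated, constitutively active HIF1α that is expressed in the renal proximal tubules, and they model early clear cell renal cell carcinoma. RNA sequencing compared 3 TRACK mice (TG+, genotype TRACK/gamma-HIF1alphaM3 TG+, mice 43-29, 43-49 and 43-75) with 3 wild-type littermates (TG-, 43-26, 43-50 and 43-76). All 6 were untreated C57BL/6 males aged 18 months, and a thin outer slice of cortex from each of the 2 kidneys gave 12 libraries. The outer slice holds every cell type of the cortex while the transgene acts in one of them, so fewer cells of a type and less RNA per cell cannot be told apart in these data.

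IGF-I and IGF-II are secreted peptides that signal through the IGF1R tyrosine kinase. The binding proteins hold the ligands in the extracellular space and prolong or block their action, and proteases that cut a binding protein release its ligand. HIF1 activates genes through the hypoxia response element, whose core is ACGTG or GCGTG, and IGFBP1 is a classic target of both hypoxia and insulin.

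The promoters of 4 binding protein genes are shown because Igfbp2 carried by far the largest difference between genotypes and Igfbp5 lies next to it, while Igfbp1 and Igfbp3 form the other adjacent pair of the family. Each line gives the 250 bases before the RefSeq transcription start (assembly GRCm38.p6), 5′ to 3′ on the strand of the gene, with the letters ACGTG or GCGTG on either strand in capitals. In Igfbp1 the capitals also mark the insulin response element letters CAAAACAA. The windows are, in order, chr1:72824230-72824479 on the plus strand, chr1:72874866-72875115 on the minus strand, chr11:7197537-7197786 on the plus strand and chr11:7213924-7214173 on the minus strand.
Igfbp2: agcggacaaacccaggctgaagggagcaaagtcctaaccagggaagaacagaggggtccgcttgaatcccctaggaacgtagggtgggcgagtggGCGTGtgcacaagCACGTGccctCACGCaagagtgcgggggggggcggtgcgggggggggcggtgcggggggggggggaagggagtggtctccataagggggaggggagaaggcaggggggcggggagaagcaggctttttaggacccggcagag
Igfbp5: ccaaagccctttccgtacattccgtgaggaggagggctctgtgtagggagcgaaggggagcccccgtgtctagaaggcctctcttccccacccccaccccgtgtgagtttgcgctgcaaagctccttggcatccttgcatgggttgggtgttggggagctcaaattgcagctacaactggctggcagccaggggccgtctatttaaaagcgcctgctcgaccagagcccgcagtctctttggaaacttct
Igfbp1: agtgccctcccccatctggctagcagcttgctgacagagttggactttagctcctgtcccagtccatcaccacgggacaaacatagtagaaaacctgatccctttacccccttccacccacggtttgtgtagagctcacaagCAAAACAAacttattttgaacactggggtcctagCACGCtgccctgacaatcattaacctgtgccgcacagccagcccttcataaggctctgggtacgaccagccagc
Igfbp3: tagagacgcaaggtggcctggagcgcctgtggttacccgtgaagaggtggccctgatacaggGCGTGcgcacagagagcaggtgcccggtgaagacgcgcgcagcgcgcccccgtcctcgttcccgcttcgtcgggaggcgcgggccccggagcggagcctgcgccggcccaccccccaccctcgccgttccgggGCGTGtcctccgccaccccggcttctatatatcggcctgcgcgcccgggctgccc

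All 10 genes matched the promoter table, with 14 start sites among them. The core was found in 7 of the 14 windows and in 7 of the 10 genes. Of all 32851 windows of that length in the table, 38.6% held at least 1 match, 16.7% at least 2 and 2.58% at least 4. These shares are per window, and no share per gene was computed to set beside the 7 of 10 genes, some with several windows. The first Igfbp2 window held 4 matches, which began at -155, -142, -141 and -132 from the start site. The middle pair is the palindrome CACGTG read once on each strand, and a second Igfbp2 start site held no match. The Igfbp3 window held 2 matches, at -188 and -55, and the Igfbp1 window held 1, at -74. The letters CAAAACAA occurred in the Igfbp1 window at -108 and in 2.21% of all windows. The windows of Igfbp4, Igfbp5 and Igfbp6 held no core, which says only that these letters are absent there. Igfbp7 held 2 matches, Igf1r 3, Igf1 1 and 1 of the Igf2 start sites 1. A match is a run of letters, and occupancy by HIF1 was not measured in these samples.

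The libraries held 21888584 to 27819034 reads on genes in TG+ and 24963346 to 33704850 in TG-. Levels are CPM, the reads of a gene scaled to a common library size, with the 2 kidneys of a mouse summed, and fold changes are on the log2 scale with the standard error (SE) of the model. Hif1a itself was at 86.3 to 109 CPM in TG+ and 103 to 107 CPM in TG- (log2 fold change -0.12, SE 0.09), and these counts do not separate a transgene transcript from the endogenous gene. A gene was called when its adjusted p was below 0.01 and its fold change above 2 or below 0.5, the thresholds of the study. Of 19399 genes tested, 3.77% were called higher and 0.211% lower in TG+.

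All 10 genes passed the filter on low counts and were tested. 1 was called higher, Igfbp2, and 0 were called lower, and DESeq2 gave the same counts. An unadjusted edgeR p below 0.05 was found for 6 of the 10, against 39.1% of all genes in either direction. By adjusted p alone, with no minimum fold, 2 were higher against 7.91% of all genes, and 1 was lower against 4.25%. The 3 mice of one genotype lay wholly above those of the other for 4 genes higher in TG+ (Igf1, Igfbp2, Igfbp3 and Igfbp5; 23.4% of all genes) and for 3 genes lower in TG+ (Igf1r, Igfbp4 and Igfbp7; 20.8%). Igf2, Igfbp1 and Igfbp6 overlapped between genotypes. Over all 10 members the log2 fold changes had a median of 0.56, beside 0.01 over all genes tested. Since the genes were selected on this contrast, the counts describe them and support no statement about the family.

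**Figure D1:**
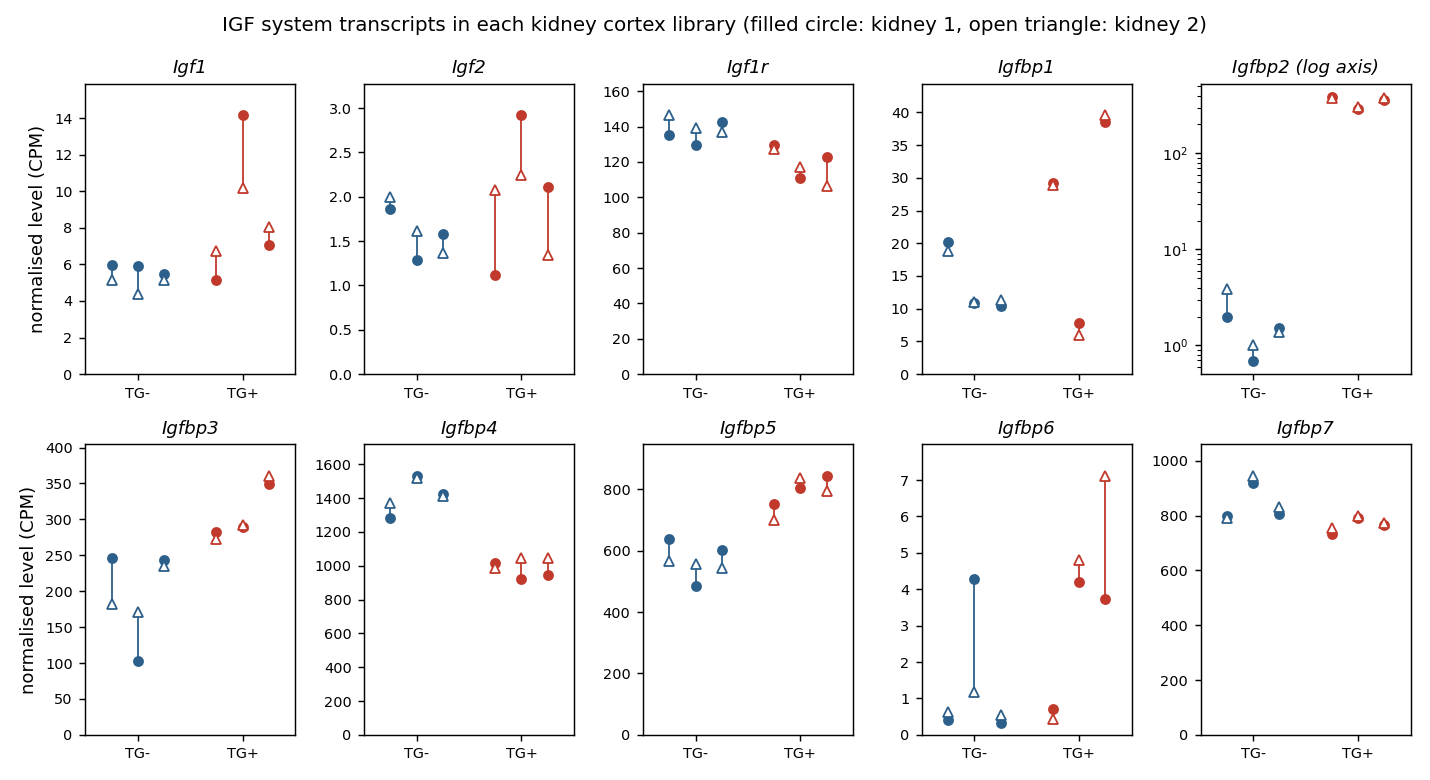
Normalised level (CPM, linear axes from 0 except the log axis of Igfbp2) of the 10 genes in each library. Each vertical pair is one mouse with its kidney 1 (filled circle) and kidney 2 (open triangle), TG- in blue and TG+ in red; mice run in ascending number from left to right. The Igfbp2 libraries of TG+ reach from 289 to 388 CPM and those of TG- from 0.69 to 3.84 CPM.

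The ligands were near the bottom of the system in both genotypes. Igf1, the growth hormone-dependent ligand, was at 6.00, 12.2 and 7.53 CPM in TG+ (mice 43-29, 43-49 and 43-75) and at 5.58, 5.25 and 5.32 CPM in TG- (43-26, 43-50 and 43-76). The 3 TG- mice differed little, and 43-49 stood highest, and the log2 fold change of 0.68 (SE 0.24) was 0.33 without that mouse. Igf2, the fetal growth ligand, was at 1.64, 2.59 and 1.73 CPM in TG+ and at 1.93, 1.44 and 1.47 CPM in TG-, with 25 to 87 reads per library. Its genotypes overlapped, and the log2 fold change of 0.31 (SE 0.22) was 0.06 without 43-49. Igf1os overlaps Igf1, and Igf2os and Mir483 overlap Igf2 in the annotation, and how the counting assigned shared reads is not given in the sources used here.

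Igf1r encodes the tyrosine kinase receptor. It was at 128, 113 and 115 CPM in TG+ and at 141, 134 and 140 CPM in TG-. All 3 TG+ mice were lower on this scale, by a small margin (log2 fold change -0.22, SE 0.06), and the gene did not pass the threshold. With library size alone as the scale the log2 fold change was -0.10.

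Igfbp2 encodes a binding protein that prefers IGF-II and, in adult animals, is made mainly by the liver. Its transcript was at 384, 293 and 365 CPM in TG+ and at 2.89, 0.84 and 1.45 CPM in TG-. Each TG+ library held 8043 to 10259 reads of the gene and each TG- library 22 to 96. The genotypes were far apart, and the fitted difference was 203-fold (log2 fold change 7.66, SE 0.37). Leaving out each mouse in turn gave 7.31 to 8.26. The TG- mice varied more than the TG+ mice on the log2 scale with 0.5 CPM added (SD 0.67 and 0.21, n = 3 each).

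Among all genes tested, Igfbp2 had the 10th largest log2 fold change, and the 2nd largest of the 15828 genes with a mean of at least 1 CPM in TG-. Its place in the order of CPM levels was 14618th in TG- and 339th in TG+. Over the 12 libraries the genes whose log2 CPM followed Igfbp2 most closely, of 16176 compared, were Apoa4 (Pearson r 0.999), which encodes a lipoprotein component, Gm10680 (0.999) and Zfp92 (0.998). Their log2 fold changes were 7.56, 7.70 and 6.89. These 12 points are 6 mice in a high and a low cluster, so r describes the shared gap between genotypes.

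Igfbp5 lies beside Igfbp2 on mouse chromosome 1 in the opposite orientation, with 5457 bases between the gene models (Igfbp2 72824503 to 72852474 on the plus strand, Igfbp5 72857932 to 72874884 on the minus strand, GENCODE on GRCm38). IGFBP5 is the most conserved binding protein and adheres to extracellular matrix. It was at 723, 815 and 818 CPM in TG+ and at 605, 519 and 573 CPM in TG-. The ranges did not touch, and the log2 fold change was 0.47 (SE 0.08), past the p threshold but not the fold threshold. Without 43-49, 43-50, 43-75 or 43-76 it no longer passed the p threshold, at 0.41 to 0.48. Of the 9 genes that reach within 500 kb of Igfbp2, 6 were tested, including both binding proteins. The other 4, Xrcc5 (-0.21), Smarcal1 (-0.06), Rpl37a (0.10) and the pseudogene Gm15843 (0.12), were neither called nor past the p threshold.

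**Figure D2:**
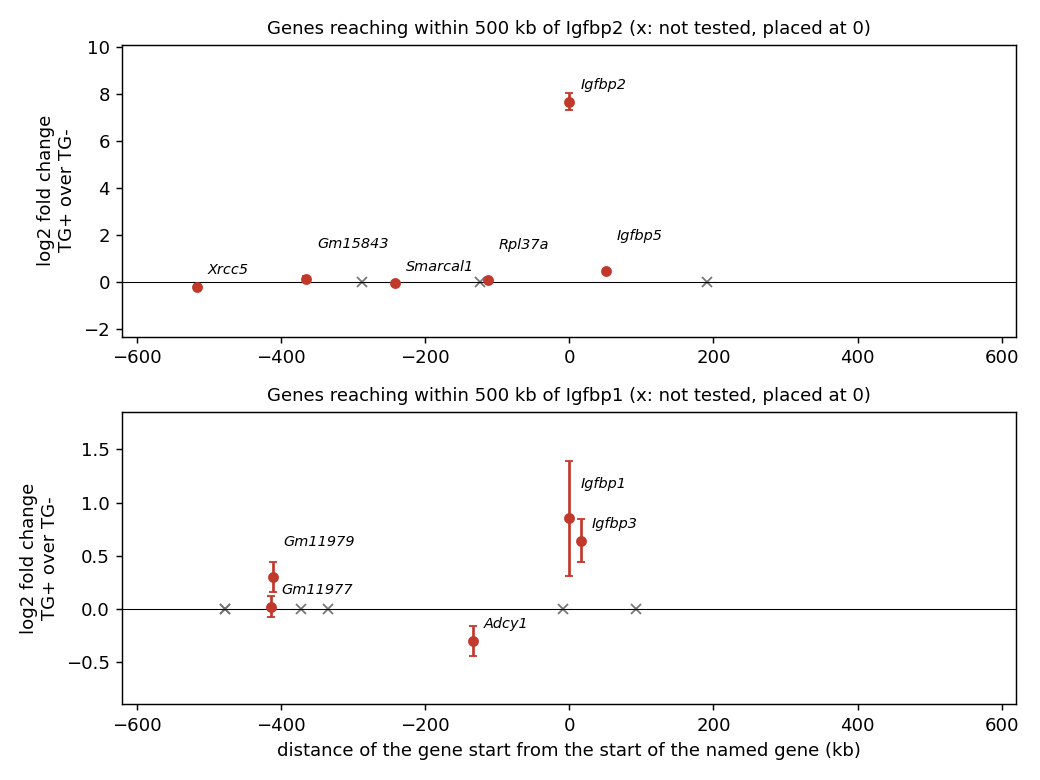
Log2 fold change (TG+ over TG-, with SE bars; 3 mice each) of genes that reach within 500 kb of Igfbp2 (top) and of Igfbp1 (bottom) against the distance between gene starts in kb. Igfbp2 stands at 7.66 while its tested neighbours lie between -0.21 and 0.47. Igfbp1 and Igfbp3 lie side by side at 0.85 and 0.64.

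The pair Igfbp1 and Igfbp3 lies on chromosome 11 with 3539 bases between the gene models, again in opposite orientation. IGFBP1 is the acutely regulated binding protein, raised by fasting and low insulin. Igfbp1 was at 29.0, 6.95 and 39.0 CPM in TG+ and at 19.6, 10.9 and 10.9 CPM in TG-. 43-49 was the lowest of all 6 mice and 43-75 the highest, and the log2 fold change of 0.85 (SE 0.54) was 1.30 without 43-49 and 0.37 without 43-75. The kidneys of a mouse were alike, with at most 0.35 between them on the log2 scale with 0.5 CPM added, against an SD of 1.29 between the TG+ mice. Igfbp1 thus varied more between TG+ animals than between the kidneys of one animal.

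IGFBP3 is the main carrier of IGFs in plasma, and its transcript is known from endothelial and interstitial cells of the kidney. Igfbp3 was at 277, 289 and 355 CPM in TG+ and at 216, 134 and 239 CPM in TG-. The lowest TG+ mouse was above the highest TG- mouse, and the log2 fold change was 0.64 (SE 0.20). It did not pass the threshold, and without 43-50, the mouse with the lowest level, it was 0.43. The 2 kidneys of 43-50 differed by 0.73 on the log2 scale, the largest such gap for this gene, beside a median of 0.05 over the 6 mice.

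Of the binding proteins, Igfbp4 had the lowest log2 fold change. IGFBP4 inhibits IGF action until the protease PAPPA cuts it. It was at 999.7, 973 and 994 CPM in TG+ and at 1328, 1532 and 1421 CPM in TG-. The TG+ mice were close together and all well below TG- (log2 fold change -0.53, SE 0.06), 1.44-fold higher in TG-, a difference past the p threshold but not the fold threshold. Every set of 5 mice gave -0.58 to -0.48, past the p threshold each time.

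Igfbp6, which prefers IGF-II, was low and uneven at 0.57, 4.46 and 5.38 CPM in TG+ and at 0.53, 2.91 and 0.43 CPM in TG-. Both genotypes held low and high mice, and the log2 fold change of 1.41 had an SE of 0.87. It was 2.85 without 43-50 and 0.94 without 43-75. The kidneys of a mouse could differ as well, since kidney 1 of TG- mouse 43-50 was at 4.27 CPM and its kidney 2 at 1.18 CPM. The 8 stromal markers, genes of fibroblasts and mural cells, were read beside it. In TG+, 7 of the 8 were lowest in 43-29 (all but Pdgfrb) and 6 were highest in 43-75 (all but Acta2 and Col1a2). In TG-, 6 of the 8 were highest in 43-50, whereas Pdgfra and Pdgfrb were lowest there. The summed level of the 8 was 249, 312 and 334 CPM in TG+ and 191, 197 and 164 CPM in TG-. Their part in the Igfbp6 levels was not tested.

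Igfbp7, a vascular and matrix protein with low affinity for IGFs, was at 743, 790 and 769 CPM in TG+ and at 796, 933 and 820 CPM in TG-. The ranges were separate by a narrow margin on this scale and the log2 fold change was -0.15 (SE 0.07). It was -0.08 without 43-50 and -0.03 with library size alone as the scale. The annotated Igfbp7 gene overlaps Polr2b.

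Levels between genes were compared per length with the deposited RPKM. In TG-, Igfbp4 was highest (327 ± 22.9 RPKM, SD, n = 3 here and below), followed by Igfbp7 (250 ± 21.6), Igfbp5 (55.7 ± 4.06), Igfbp3 (48.4 ± 13.0), Igf1r (17.6 ± 0.45), Igfbp1 (9.18 ± 3.29), Igfbp6 (1.15 ± 1.18), Igfbp2 (0.41 ± 0.24), Igf1 (0.24 ± 0.01) and Igf2 (0.08 ± 0.01). The ranges of Igfbp5 and Igfbp3 overlapped, as did those of Igfbp6 and Igfbp2, and of Igfbp2 and Igf1. In TG+, Igfbp2 took place 3, at 77.3 ± 10.5 RPKM. Its range overlapped that of Igfbp5 (75.4 ± 5.41), which overlapped that of Igfbp3 (73.3 ± 10.3), so on these lengths the 3 could not be ordered. Igfbp4 (221 ± 2.79) and Igfbp7 (220 ± 7.51) overlapped above them.

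Summed over the 7 binding proteins, the RPKM were 686 ± 29.7 in TG+ and 691 ± 27.6 in TG-, and the ranges of the mice overlapped (665 to 720 and 664 to 719). Without Igfbp2 the sums were 609 ± 26.3 and 691 ± 27.9, and all TG+ mice were lower (588 to 638 against 663 to 719). The make-up of the sum differed between genotypes. Igfbp2 held 11.3% ± 1.41 of it in TG+ and 0.06% ± 0.04 in TG-, while Igfbp4 held 32.3% ± 1.11 and 47.2% ± 1.42. Igf1 and Igf2 together came to 0.46 ± 0.16 RPKM in TG+ and 0.31 ± 0.02 in TG-, so transcripts of the binding proteins far outnumbered those of the ligands in this tissue in both genotypes.

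The order and the sums rest on the gene lengths behind the deposited values, which were 0.48 (Igf1r) to 3.86 (Igf2) times the GENCODE exon lengths. The values with GENCODE lengths given next divide CPM, not the deposited RPKM, by length, so the scaling between libraries changed as well. With GENCODE lengths Igfbp7 stood above Igfbp4 in both genotypes, and the means of Igfbp1 and Igf1r changed places in TG-, where their ranges overlapped. In TG+, Igfbp2 (188 ± 25.8 CPM per kb), Igfbp5 (131 ± 9.05) and Igfbp3 (98.0 ± 13.4) then had separate ranges in that order, as did Igfbp5 and Igfbp3 in TG-. The 7 binding proteins then summed to 1295 ± 37.9 CPM per kb in TG+ and 1194 ± 58.7 in TG-, with ranges that did not overlap (1269 to 1338 and 1143 to 1258). Igfbp2 held 14.5% ± 1.89 of that sum in TG+ and 0.08% ± 0.05 in TG-, and Igfbp4 held 17.3% ± 0.46 and 27.0% ± 0.66. Without Igfbp2 the sums were 1107 ± 35.9 CPM per kb in TG+ and 1193 ± 59.3 in TG-. Their ranges then all but touched (1069 to 1140.8 and 1141.7 to 1258). The place of Igfbp2, 3 of 10 in TG+ and 8 of 10 in TG-, was the same by either length.

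**Figure D3:**
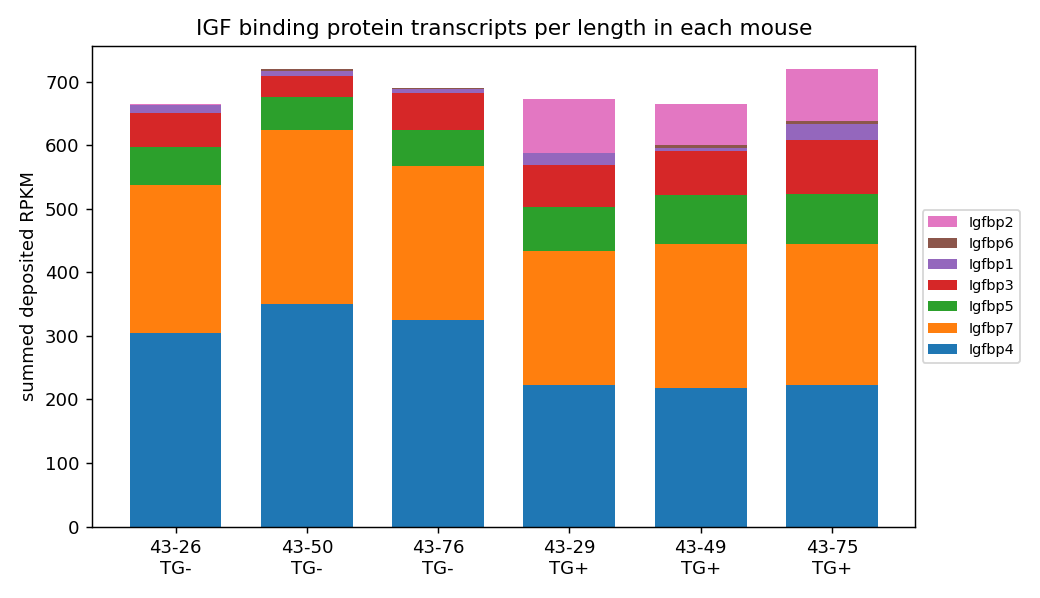
Deposited RPKM of the 7 binding protein genes stacked for each mouse (mean of its 2 kidneys). The stacks reach 664 to 720 RPKM in all 6 mice; the pink segment (Igfbp2) holds 11.3% of the stack on average in TG+ and 0.06% in TG-, and the blue segment (Igfbp4) is 221 RPKM in TG+ and 327 RPKM in TG-.

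Beyond these genes, 39 others of the IGF pathway were listed, and 36 had enough reads to be tested. This list too was chosen with earlier results of these data known, so its counts and p-values are a description. 1 was called higher and 1 lower by edgeR's quasi-likelihood test, and the median log2 fold change was -0.04. By adjusted p alone 4 were higher and 2 lower. The counts were read against the 3.77% and 0.211% of all genes called higher and lower, and the 7.91% and 4.25% by adjusted p alone. The highest was Stc2, stanniocalcin 2, a secreted inhibitor of the protease PAPPA, which itself cuts IGFBP4. Stc2 was at 39.8, 42.8 and 44.8 CPM in TG+ and at 3.10, 2.63 and 2.74 CPM in TG-. All 3 TG+ mice were higher, 15.1-fold in the fit (log2 fold change 3.91, SE 0.09, edgeR quasi-likelihood adjusted p = 1.13e-06). Pappa did not pass the test (log2 fold change 0.21, SE 0.18), nor did Pappa2 (0.04, SE 0.23) or the paralogue Stc1 (0.66, SE 0.28). The Stc2 call was made with every mouse left out in turn.

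The lowest was Igf2bp1, which encodes an RNA-binding protein of the Igf2 mRNA and is no IGF carrier despite its name. It was at 5.58, 6.84 and 5.99 CPM in TG+ and at 16.4, 13.5 and 10.3 CPM in TG-. The transcript fell in all 3 TG+ mice (log2 fold change -1.13, SE 0.17, edgeR adjusted p = 0.00282), but without 43-26, 43-50 or 43-75 it was no longer called (edgeR adjusted p = 0.00545, 0.0108 and 0.0133, log2 fold changes -0.96, -1.12 and -1.12). Its relative Igf2bp2 was higher in TG+ by adjusted p alone (log2 fold change 0.90, SE 0.11), at 16.3, 14.0 and 12.9 CPM against 7.68, 8.28 and 7.16 CPM. Igf2bp3 did not pass (0.39, SE 0.21).

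Igf2r, the receptor that clears IGF-II, was lower in TG+ by adjusted p alone, at 162, 168 and 178 CPM against 216, 218 and 214 CPM (log2 fold change -0.35, SE 0.05). It did not pass without 43-26, 43-29, 43-50 or 43-76, nor with library size alone as the scale (edgeR adjusted p = 0.0121 to 0.0173, log2 fold changes -0.36 to -0.23). Igfals, the acid-labile subunit of the plasma complex of IGF with IGFBP3 or IGFBP5, did not pass (-0.46, SE 0.22), and neither did the insulin receptor Insr (-0.12, SE 0.06). Among 12 adaptors and kinases tested, 1 passed by adjusted p alone, Pik3r1, the regulatory subunit of phosphoinositide 3-kinase (0.36, SE 0.05). It did not pass without 43-26, 43-75 or 43-76 (0.32 to 0.36). Of 6 growth hormone signalling genes, Jak2, the kinase of the growth hormone receptor, was higher by adjusted p alone (0.31, SE 0.05), but did not pass with any 1 of the 6 mice left out (0.28 to 0.34). Ghr, the receptor, was not past it (-0.34, SE 0.08). Irs2, Socs2 and Cish, which respond quickly to insulin or growth hormone, varied between animals of one genotype. Irs2 was at 21.5, 15.3 and 62.8 CPM in TG+ and at 36.0, 91.3 and 27.5 CPM in TG-. Cish was likewise highest in 43-75 among TG+ mice (20.1 CPM) and in 43-50 among TG- mice (35.0 CPM), and Socs2 was highest in 43-29 (14.0 CPM) and 43-50 (25.8 CPM).

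**Figure D4:**
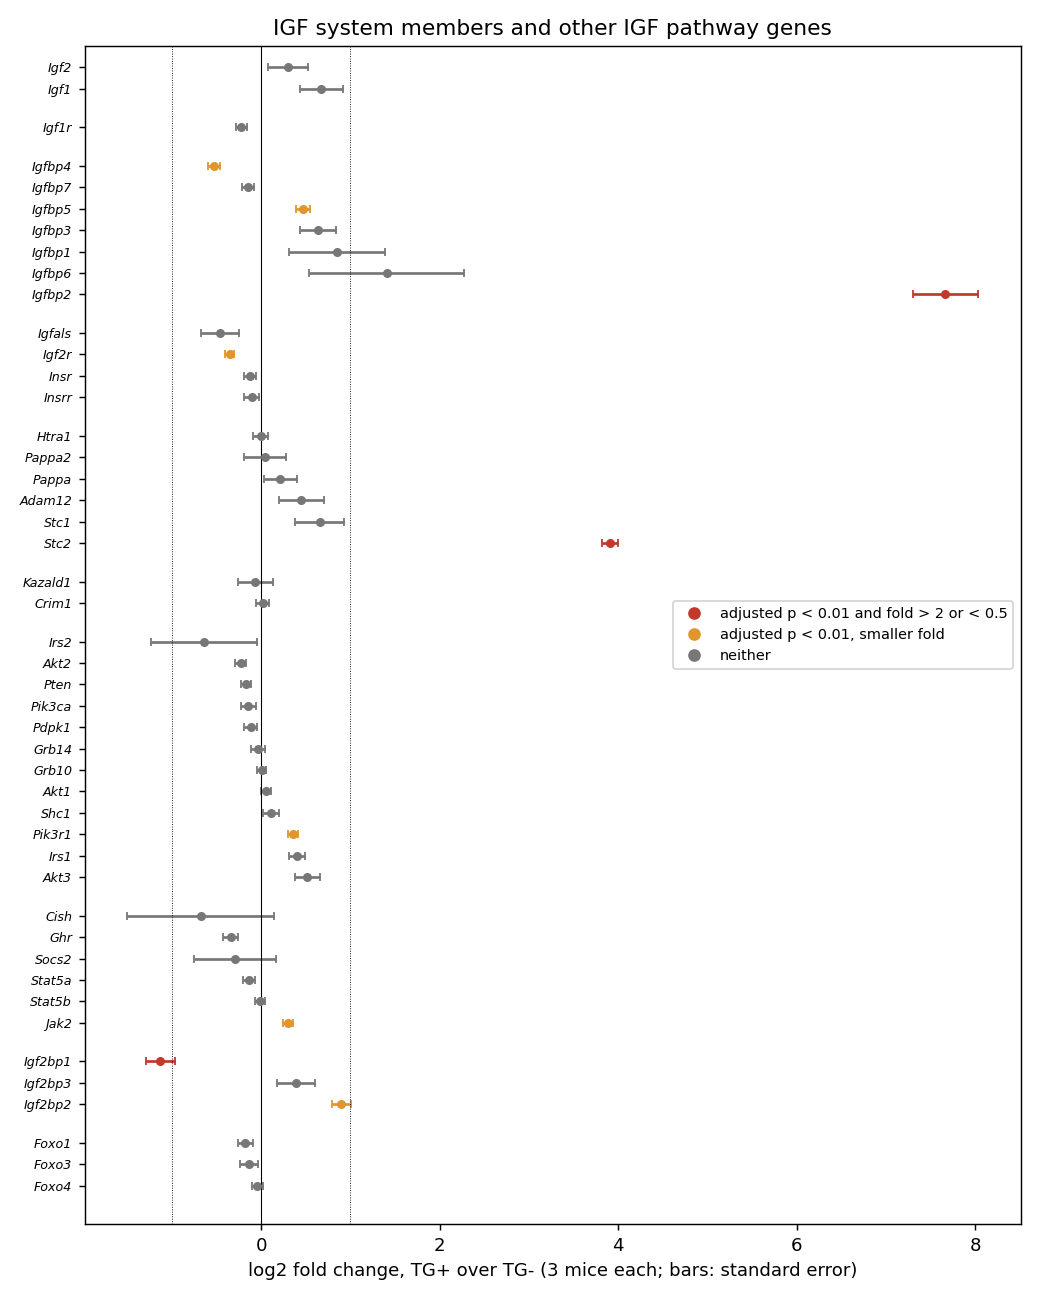
Log2 fold change (TG+ over TG-, 3 mice each, with SE bars) of the 10 IGF system genes and 36 other IGF pathway genes, in blocks by role; dotted lines mark a fold of 2 and 0.5. Igfbp2 at 7.66, Stc2 at 3.91 and Igf2bp1 at -1.13 are the red points (past both thresholds), and every other point except Igfbp6 at 1.41 lies between the dotted lines.

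Markers of the cortex cell types moved between genotypes beside these genes. Of all genes tested, 3.77% were called higher and 0.211% lower in TG+, and 7.91% and 4.25% by adjusted p alone. The TG+ mice lay wholly above the TG- mice for 23.4% of all genes, and wholly below for 20.8%. All 12 proximal tubule markers had log2 fold changes below 0, 2 of them called lower (Slc22a6 and Cyp4b1), and they summed to 28366 to 31776 CPM in TG+ and 39282 to 41753 CPM in TG-. Without Kap, the most abundant of them (log2 fold change -0.08), the sums were 14094 to 14410 CPM and 22325 to 24278 CPM. The 9 endothelial markers were higher in every TG+ mouse, 8 of them by adjusted p alone, and summed to 710 to 757 CPM against 408 to 528 CPM. The 8 stromal markers summed to 249 to 334 CPM against 164 to 197 CPM, 11 immune markers (Cd3e, Cd4 and Cd79a called higher) to 160 to 176 CPM against 89.9 to 114 CPM, and 7 tubule injury markers (Havcr1, Krt19 and Cd44 called higher) to 54.4 to 98.5 CPM against 15.9 to 39.2 CPM. Podocyte markers summed to 542 to 631 CPM against 412 to 495 CPM, and markers of other nephron segments overlapped, at 3537 to 4836 CPM against 3874 to 3975 CPM. The log2 fold changes of the proximal tubule markers ran from -1.09 to -0.08 with a median of -0.55, and 7 were lower by adjusted p alone. The members lower in TG+ were at -0.53 (Igfbp4), -0.22 (Igf1r) and -0.15 (Igfbp7). The part of these differences in the levels of the 10 genes was not tested.

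Because Igfbp2 is a liver product, 8 liver markers were read beside it. They summed to 521 to 604 CPM in TG+ and 403 to 484 CPM in TG-, most of it Apob. Of the 7 tested, 5 had log2 fold changes above 0, with Apoa1 and Ttr called higher, and 2 below 0 (Serpina1a at -0.20 and Fgb at -0.02). Of all 19399 genes tested, 10042 were above 0 and 3.77% were called higher. Ttr was at 88.2 CPM in TG+ and 32.9 CPM in TG-. Apoa1 was low, at 2.06 CPM in TG+ and 0.16 CPM in TG-. Its TG- mice 43-26, 43-50 and 43-76 held 3, 19 and 4 reads. Ahsg was at 0.07 CPM in both genotypes, too low to test. Alb was at 11.1 ± 2.03 CPM in TG+ and 7.98 ± 2.46 CPM in TG- (SD, n = 3), and was not called.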

How the data were processed

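RNA from the cortex slices was sequenced as 51-bp single-end reads and analysed by the authors mainly with the Tuxedo tools, and the submitters' processing notes name the build mm9. The counting program, the annotation and the use of strand are not given in the sources used here. Per the file headers, the authors deposited raw read counts per Ensembl gene for 12 libraries, and RPKM scaled by a method the header calls BUQ, which are proportional to the count plus 1. Columns with the authors' own comparison of the genotypes and their averages were not used.

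Counts of the 2 kidneys of a mouse were summed, since the mouse is the unit. Genes were filtered (filterByExpr) and fitted with edgeR 4.0.16 (TMM factors, quasi-likelihood test) over 3 TG+ and 3 TG- mice, with Benjamini-Hochberg adjustment over 19399 genes. CPM are scaled by the TMM factors, and 0.5 CPM was added before taking log2 for differences between kidneys, SDs on the log2 scale, ratios of mean levels and correlations. The code was tested on simulated data. Gene positions and exon lengths come from GENCODE on GRCm38 by Ensembl ID (32661 of 37681 matched), and promoters from RefSeq (GRCm38.p6). The table holds no coordinates. R 4.3.3, Python 3.11.15 and pandas 2.3.3 were used.

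The members, pathway list and marker lists were chosen with earlier results of these data known. Named genes were all members, Hif1a, pathway genes past the threshold or at the extremes of their list, the called and the most abundant markers, and the 3 genes most like Igfbp2; other pathway genes with values, and the stromal markers named beside Igfbp6, were added after their values were seen. Alternatives were DESeq2 1.42.0, other scalings, no filter, each kidney as a library, littermate pairs, each mouse left out, other thresholds, and other summaries of the levels. Reads per library ranged from 21888584 to 33704850.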

Additional observations from a re-analysis of the deposited data

Results flagged for a closer look

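Among 32 groups of 6 libraries examined (16 named genes in 2 genotypes), 1 value stood apart. Igfbp6 was at 4.27 CPM in kidney 1 of TG- mouse 43-50, while the other 5 TG- libraries had a median of 0.54 CPM and reached at most 1.18 CPM. The gap to the nearest library was 0.78 of the whole range of the group. Chance alone marks about 1 in 20 such groups, and the 6 libraries are pairs of kidneys from 3 mice.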

How the results depend on the processing

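Over the 10 members and 6 other pathway genes, 192 refits of single genes kept their direction, and 188 kept their side of the threshold. Igfbp2 was the 1 member called higher, with 0 called lower, under every other scaling, filter, unit and left-out mouse tried (log2 fold changes 7.31 to 8.26). With the replicate block for the littermate pairs its value was 7.71, and the block changed no call among these 16 genes. The pairs are named only in the title of the table, and the deviations of paired mice correlated at 0.28, 0.31 and -0.06, so the block is given here alone. By adjusted p with no minimum fold, the members counted 2 higher and 1 lower, and the other pathway genes 4 higher and 2 lower. With library size alone as the scale the other pathway genes called higher were 2, since Igf2bp2 passed (log2 fold change 1.02), and the median of all genes moved from 0.01 to 0.13. The pathway genes called lower ranged from 0 to 1 when each mouse was left out, which is Igf2bp1 alone.

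By adjusted p alone, Igfbp3 passed in DESeq2, and Igfbp3 and Igf1r passed with each kidney as a library, but neither did in the mouse-level edgeR fit. Igfbp5 and Igf2r lost that threshold without 4 of the 6 mice each, Pik3r1 without 3 and Jak2 without any 1 of the 6 (edgeR adjusted p up to 0.0308), while Igfbp4, Igf2bp2 and Stc2 kept it. Without kidney 1 of 43-50, an alternative chosen after seeing the data, the log2 ratio of mean Igfbp6 levels, with 0.5 CPM added, was 1.72 in place of 1.21. GENCODE lengths, with CPM in place of RPKM, moved 6 of 20 places in the order of levels, and medians over libraries moved 0. With 3 mice a group, an exact 2-sided permutation test cannot go below 0.1. Igf2 and Igfbp6 had as few as 25 and 8 reads in a library, so counting error adds to their spread.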
